A study of Mus musculus with 6 samples.

Results

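Progression from G1 into S phase is governed by a small set of genes, and 10 of them are described here across mouse neural progenitor cells (NPCs) before and after auxin: the D-type cyclin genes Ccnd1, Ccnd2 and Ccnd3, their kinase partners Cdk4 and Cdk6, the CDK inhibitor genes Cdkn1b, Cdkn2a and Cdkn2c, and the pocket protein genes Rb1 and Rbl2. They were taken by name, and all 10 were found among the 53801 genes counted in each library. All 10 passed the filter on low counts. The question was whether the lower RNA of S-phase genes after 48 h of auxin came with a pattern of G1 exit, that is, less cyclin D and more inhibitor and pocket protein RNA.

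The cells are NPCs, dividing cells of the neural lineage, derived by differentiation of BL/6J x CAST-EiJ embryonic stem cells and kept in medium with EGF and FGF. In every library, untreated ones included, the cells carry SPEN-AID, a fusion of the RNA-binding repressor SPEN to an auxin-inducible degron, through which auxin triggers breakdown of the protein; SPEN protein itself cannot be read from RNA counts. Clone 31 and clone 30 are subclones of these cells, and each gave 1 library per condition: untreated, 24 h of auxin, and 48 h of auxin (500 uM), so that each of the 3 groups has n = 2. No subclone was repeated at any time, and no cells without the degron were analysed here, so an effect of auxin itself and of SPEN loss cannot be told apart. Total counts ran from 24603816 to 43008978 per library, in which 3 counts equal 0.122 to 0.070 CPM.

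In G1, D-type cyclins made under growth factor signalling bind CDK4 or CDK6, and the kinases phosphorylate the retinoblastoma protein and its relatives, which frees E2F factors to switch on S-phase genes. INK4 proteins, encoded by Cdkn2a and Cdkn2c among others, block CDK4 and CDK6, while p27, encoded by Cdkn1b, restrains CDK2 and accumulates as progenitors leave the cycle. The Rbl2 product p130 joins the MuvB proteins in a repressor complex of quiescent cells.

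Markers of neural progenitors were abundant, except Pax6. The summed level of 6 of 6 tested progenitor markers ran from 4118 to 5784 CPM over the libraries. Vim had 1206 to 2007 CPM and Pax6 12.8 to 36.7 CPM. Of the 4 listed pluripotency genes, Pou5f1 and Zfp42 had 0 counts in every library. Neuron markers (5 of 6 tested) summed to 721 to 1132 CPM and mesenchymal markers (3 of 4) to 18.1 to 35.3 CPM. Most of the neuron sum was Map2, at 699 to 1083 CPM, and no other gene of that list exceeded 41.2 CPM (Tubb3). Thy1 made up most of the mesenchymal sum, at 14.3 to 33.5 CPM, and no other gene of that list exceeded 3.14 CPM (Col1a1). The pluripotency list (2 of 4 tested) summed to 4.86 to 7.49 CPM, from Nanog and Esrrb, which moved in opposite directions at 48 h. Nanog averaged 3.09 CPM at 48 h against 1.32 CPM untreated, and Esrrb 2.09 CPM against 4.39 CPM. Of these 2 genes 1 rose and 0 fell at 48 h against untreated (edgeR with the clone as a term). In that fit 8.35% of all genes rose and 9.08% fell. Within the progenitor list, Sox2 had 472 CPM in clone 31 and 339 CPM in clone 30 at 48 h, against 192 and 200 CPM untreated, and rose (edgeR with the clone as a term, adjusted p = 0.0239). Nes had 648 and 1136 CPM at 48 h, against 1275 and 1289 CPM untreated, and did not pass (adjusted p = 0.0962; DESeq2 with the clone as a term 0.0207). Of the 6 progenitor markers 5 were above untreated at 48 h in the edgeR fit and only Nes was below (median log2 change 0.47). This fit called 1 higher and 0 lower, beside 8.35% and 9.08% of all genes. DESeq2 with the clone as a term called 4 higher and 1 lower, beside 10.9% and 12.0%. Markers of glia were higher at 48 h. The 4 astrocyte markers summed to 855 CPM in clone 31 and 597 CPM in clone 30 at 48 h, against 319 and 399 CPM untreated. Aldoc supplied 703 and 480 CPM of the 48 h sums in clone 31 and clone 30, while Gfap had 0.942 and 2.72 CPM. Oligodendrocyte lineage markers (4 of 5 tested, none of the 5 at 0 throughout) summed to 531 and 326 CPM at 48 h in clone 31 and clone 30, against 92.9 and 147 CPM untreated. Cnp supplied 459 and 239 CPM of these 48 h sums, while Sox10 had 0.188 and 0.162 CPM and Mbp 1.47 and 0.356 CPM. The part of these progenitor and glial markers in the results at 48 h was not tested, and in these bulk samples fewer cells of a type and less RNA per cell cannot be told apart.

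The D-type cyclin genes carried the main change. Ccnd1 (ENSMUSG00000070348, chromosome 7, 144929931 to 144939925, mm10), the cyclin gene most directly induced by growth factors, stood in clone 31 at 1124 CPM untreated, 1238 CPM at 24 h, then 203 CPM at 48 h. In clone 30 it stood at 1314 CPM untreated, 1924 CPM at 24 h, then 498 CPM at 48 h. Both 48 h libraries lay below all other libraries, and both 24 h libraries lay above the untreated library of their clone. At 48 h Ccnd1 averaged 351 ± 209 CPM against 1219 ± 134 CPM untreated (SD, n = 2 each), and it fell by 1.93 ± 0.26 on the log2 scale (SE; edgeR with the clone as a term, adjusted p = 0.0238; 0.151 on treatment group alone). The change at 48 h was -2.47 within clone 31 and -1.40 within clone 30.

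Ccnd2 (ENSMUSG00000000184, chromosome 6, 127125162 to 127152193), the D-type cyclin gene associated with expanding cortical progenitors, had 870 CPM untreated, 999 CPM at 24 h, then 244 CPM at 48 h in clone 31. Its levels in clone 30 were 1416 CPM untreated, 1982 CPM at 24 h, then 814 CPM at 48 h. The course was that of Ccnd1 in both clones, but the clones stood further apart, and the 48 h library of clone 30 lay only just below the untreated library of clone 31. Averages were 529 ± 404 CPM at 48 h and 1143 ± 386 CPM untreated (SD, n = 2 each), and the gene fell by 1.30 ± 0.25 (edgeR with the clone as a term, adjusted p = 0.0302; 0.39 on treatment group alone).

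Ccnd3 (ENSMUSG00000034165, chromosome 17, 47505051 to 47599691) changed in the same direction by less. Clone 31 held 80.3 CPM untreated, 86.8 CPM at 24 h, then 55.2 CPM at 48 h, and clone 30 held 83.9 CPM untreated, 94.1 CPM at 24 h, then 65.2 CPM at 48 h. Neither the 48 h and untreated libraries nor the 24 h and untreated libraries overlapped, in opposite directions. The gene fell at 48 h by 0.45 ± 0.09 (edgeR with the clone as a term, adjusted p = 0.032; 0.161 on treatment group alone).

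Per kilobase of exon, Ccnd1 was the most abundant of the 3 cyclin genes in every library and Ccnd3 the least. Summed RPKM (TMM-scaled CPM divided by exon length in kb) of the 3 genes was 340 untreated, 379 at 24 h and 75.3 at 48 h in clone 31, and 439 untreated, 630 at 24 h and 200 at 48 h in clone 30. The pool at 48 h was thus below every other library. Its make-up shifted too: Ccnd1 supplied 57.3% of the sum at 48 h in clone 31 and 52.9% in clone 30, against 70.1% and 63.5% in the untreated libraries of clone 31 and clone 30. The share of Ccnd3 was 8.36% in clone 31 and 3.72% in clone 30 at 48 h, against 2.69% and 2.18% untreated. Ccnd3 RNA was lower at 48 h, so its larger share goes with the larger loss of the other 2 genes.

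**Figure D1:**
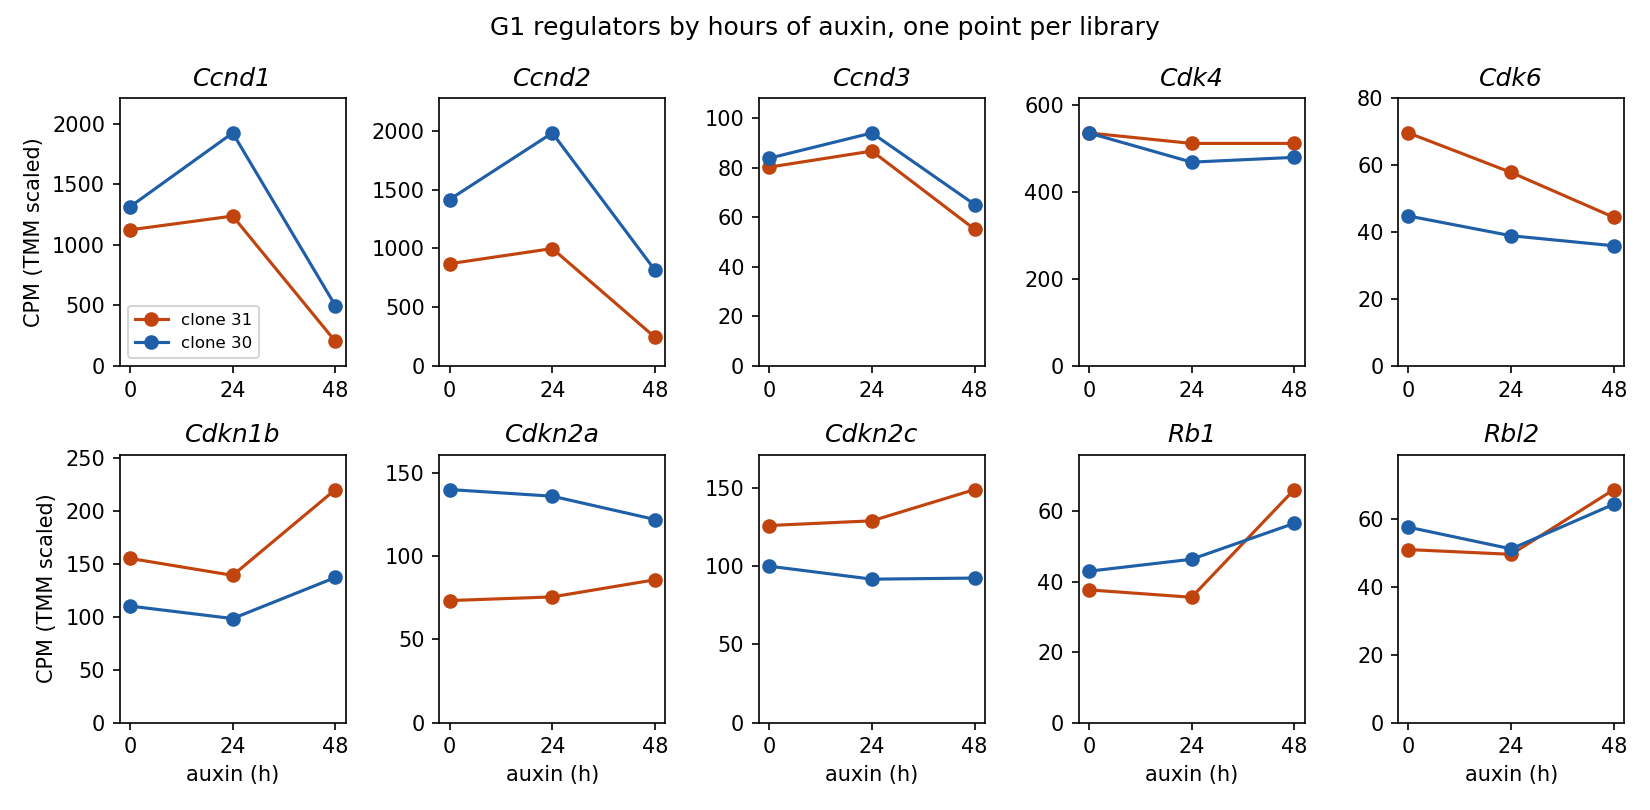
Level of each of the 10 genes in TMM-scaled CPM (vertical axis, from 0) at 0, 24 and 48 h of auxin (horizontal axis), 1 point per library, clone 31 in red and clone 30 in blue. The 3 cyclin genes are highest at 24 h and lowest at 48 h in both clones, with Ccnd1 at 203 and 498 CPM at 48 h in clone 31 and clone 30, while Cdkn1b, Rb1 and Rbl2 are highest at 48 h.

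Of the kinase genes Cdk6 fell and Cdk4 did not pass. Cdk4 (ENSMUSG00000006728, chromosome 10, 127063534 to 127067920), which encodes the main partner of D-type cyclins, had 535 CPM in both untreated libraries. Treated libraries of clone 31 had 511 CPM at 24 h and again at 48 h, and those of clone 30 had 468 CPM at 24 h and 479 CPM at 48 h. All 4 auxin libraries lay below both untreated ones, by a log2 change of -0.11 ± 0.10 at 48 h that did not pass (edgeR with the clone as a term, adjusted p = 0.443; 0.637 on treatment group alone). Cdk6 (ENSMUSG00000040274, chromosome 5, 3341485 to 3531008), the related kinase gene, had 69.6 CPM untreated, 57.8 CPM at 24 h, then 44.4 CPM at 48 h in clone 31. Its levels in clone 30 were 44.8 CPM untreated, 38.9 CPM at 24 h, then 35.9 CPM at 48 h. Cdk6 stepped down at each time in both clones and fell by 0.48 ± 0.12 at 48 h (edgeR with the clone as a term, adjusted p = 0.0431; 0.382 on treatment group alone). Cdk4 outweighed Cdk6 per kilobase in all 6 libraries, with 97.1% to 98.3% of their summed RPKM, so the summed kinase RNA of 160 RPKM in clone 31 and 150 RPKM in clone 30 at 48 h stood close to the 170 and 168 RPKM of the untreated libraries. The ratio of D-type cyclin to kinase RPKM was 0.469 in clone 31 and 1.33 in clone 30 at 48 h, against 2.01 and 2.61 untreated.

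Among the inhibitor genes only Cdkn1b passed at 48 h. Cdkn1b (ENSMUSG00000003031, chromosome 6, 134920401 to 134925513) had 155 CPM untreated, 139 CPM at 24 h, then 220 CPM at 48 h in clone 31. In clone 30 it had 110 CPM untreated, 98.2 CPM at 24 h, then 137 CPM at 48 h. The groups overlapped because clone 31 stood above clone 30 at every time, while each clone was lowest at 24 h and highest at 48 h. Cdkn1b rose at 48 h by 0.41 ± 0.09 (edgeR with the clone as a term, adjusted p = 0.0382; 0.483 on treatment group alone), with 0.51 within clone 31 and 0.32 within clone 30.

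Cdkn2a (ENSMUSG00000044303, chromosome 4, 89274471 to 89294653) encodes the CDK4 and CDK6 inhibitor p16INK4a and, in another reading frame, p19ARF, a stabiliser of p53. The deposited counts join the transcripts of both. Clone 31 had 73.3 CPM untreated, 75.5 CPM at 24 h, then 85.8 CPM at 48 h, and clone 30 had 140 CPM untreated, 136 CPM at 24 h, then 122 CPM at 48 h. The clones thus drew together at 48 h from opposite sides, and the log2 change over both was 0.02 ± 0.12 (edgeR with the clone as a term, adjusted p = 0.93; 0.975 on treatment group alone). Cdkn2c (ENSMUSG00000028551, chromosome 4, 109660876 to 109667189), which encodes the INK4 protein p18, had 126 CPM untreated, 129 CPM at 24 h, then 149 CPM at 48 h in clone 31, against 100 CPM untreated, 91.7 CPM at 24 h, then 92.4 CPM at 48 h in clone 30. Its change of 0.06 ± 0.11 at 48 h did not pass (edgeR with the clone as a term, adjusted p = 0.713; 0.893 on treatment group alone).

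Summed over these 3 inhibitor genes, RPKM was 177 in clone 31 and 169 in clone 30 at 48 h, against 143 and 181 untreated, so the sum moved up in one clone and down in the other. The ratio of D-type cyclin to inhibitor RPKM was 2.37 untreated, 2.65 at 24 h and 0.425 at 48 h in clone 31. In clone 30 it was 2.42 untreated, 3.66 at 24 h and 1.18 at 48 h. The untreated clones had nearly the same ratio, and the 48 h libraries were the lowest of each clone. The sum of these 3 inhibitor genes differed less between times than the cyclin sum, so most of this shift lies in the cyclin term. Cdkn2a, whose count includes p19ARF transcripts, made up 41.3% to 67.6% of the inhibitor sum. Cdkn1a, which encodes p21, lies outside this sum and had more CPM than any of these 3 genes in every library. It had 319 CPM in clone 31 and 437 CPM in clone 30 at 48 h, against 418 and 658 CPM untreated. The ratio therefore leaves out much CDK inhibitor RNA.

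**Figure D2:**
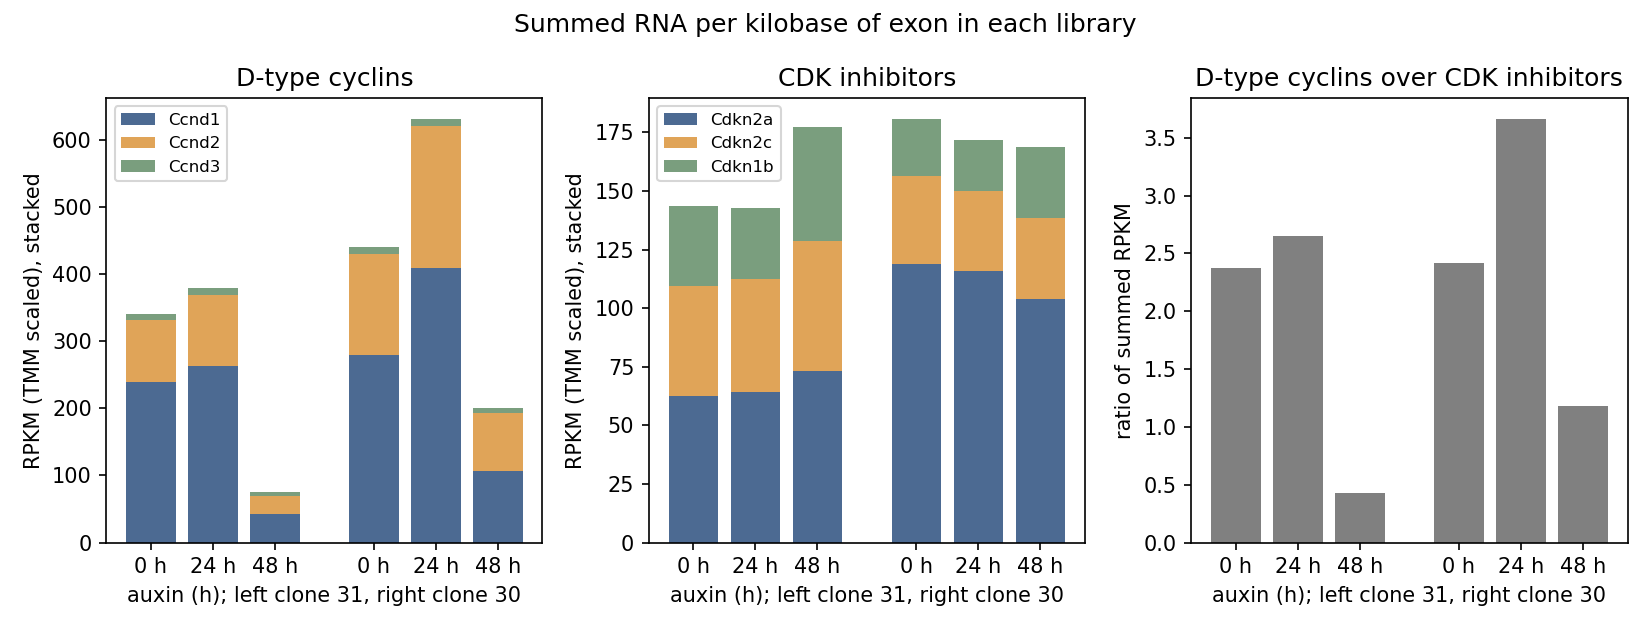
Stacked RPKM of the 3 D-type cyclin genes (left), of the 3 inhibitor genes (middle) and the ratio of these sums (right) in each library, with clone 31 at the left and clone 30 at the right of each panel and hours of auxin on the horizontal axis. The cyclin sum at 48 h is 75.3 RPKM in clone 31 and 200 RPKM in clone 30, while the inhibitor sum stays between 143 and 181 RPKM in all 6 libraries.

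RefSeq windows on GRCm38.p6, from 250 bases before to 50 bases after an annotated gene start, were held for 7 of the 10 genes (10 windows). No window was listed for Ccnd1, Ccnd2 and Rb1. They were searched on both strands for the E2F words TTTCCCGC, TTTCGCGC, TTTGCCGC and TTTGGCGC, since E2F factors stand at the end of this pathway, and for TTTGAA, the core of the element bound by MuvB. An E2F word was in 1 of the 10 windows, and over all 32851 windows of this length 2.3% held one. The TTTGAA word was in 1 window, that of Rbl2, against 17.9% of all windows. The 2 Cdkn2a windows are shown because the one count of this gene joins transcripts from both starts, that of Cdkn1b because it is the inhibitor gene that rose, and the downstream window of Ccnd3 because it is the D-type cyclin gene with a window. Capitals mark the E2F word, which begins at position -99 from the upstream Cdkn2a start.
Cdkn2a upstream start, chr4:89294570-89294869, minus strand: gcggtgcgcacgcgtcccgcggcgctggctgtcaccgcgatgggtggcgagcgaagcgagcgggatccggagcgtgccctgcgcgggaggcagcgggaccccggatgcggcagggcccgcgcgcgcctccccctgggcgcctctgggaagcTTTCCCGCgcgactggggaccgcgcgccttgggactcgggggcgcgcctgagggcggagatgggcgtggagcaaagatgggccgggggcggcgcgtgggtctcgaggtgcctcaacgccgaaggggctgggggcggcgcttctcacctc
Cdkn2a downstream start, chr4:89282143-89282442, minus strand: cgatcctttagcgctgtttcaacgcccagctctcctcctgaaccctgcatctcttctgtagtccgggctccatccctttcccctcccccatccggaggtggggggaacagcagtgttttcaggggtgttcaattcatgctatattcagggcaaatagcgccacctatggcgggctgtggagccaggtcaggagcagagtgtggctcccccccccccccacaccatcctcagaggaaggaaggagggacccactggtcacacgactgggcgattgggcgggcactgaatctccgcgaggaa
Cdkn1b, chr6:134920151-134920450, plus strand: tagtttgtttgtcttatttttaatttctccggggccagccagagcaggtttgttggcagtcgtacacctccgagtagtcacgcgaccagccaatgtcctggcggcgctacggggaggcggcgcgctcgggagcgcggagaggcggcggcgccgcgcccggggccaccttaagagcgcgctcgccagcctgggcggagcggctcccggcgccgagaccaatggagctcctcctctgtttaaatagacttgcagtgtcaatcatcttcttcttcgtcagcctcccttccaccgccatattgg
Ccnd3 downstream start, chr17:47593217-47593516, plus strand: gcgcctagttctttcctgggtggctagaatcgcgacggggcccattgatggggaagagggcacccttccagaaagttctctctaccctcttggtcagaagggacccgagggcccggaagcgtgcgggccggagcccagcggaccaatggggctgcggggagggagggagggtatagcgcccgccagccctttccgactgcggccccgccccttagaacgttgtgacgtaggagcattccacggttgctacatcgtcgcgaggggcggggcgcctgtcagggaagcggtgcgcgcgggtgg
The upstream Cdkn2a window has a GC content of 77.0%, against 60.3% in the downstream one, 62.0% for Cdkn1b and 67.0% for this Ccnd3 window. These matches describe letters only.

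Both pocket protein genes stood higher at 48 h in each clone. Rb1 (ENSMUSG00000022105, chromosome 14, 73183673 to 73325822), the retinoblastoma gene, had 37.7 CPM untreated, 35.6 CPM at 24 h, then 66.2 CPM at 48 h in clone 31. Clone 30 had 43.0 CPM untreated, 46.4 CPM at 24 h, then 56.6 CPM at 48 h. Neither 48 h library overlapped any other library. The change at 48 h against untreated was 0.61 ± 0.16 and lay at the threshold without passing it (edgeR with the clone as a term, adjusted p = 0.05001; 0.169 on treatment group alone), whereas DESeq2 with the clone as a term gave an adjusted p of 0.00944. Between 24 h and 48 h Rb1 rose by 0.59 ± 0.16 (edgeR with the clone as a term, adjusted p = 0.0424; 0.129 on treatment group alone).

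Rbl2 (ENSMUSG00000031666, chromosome 8, 91070057 to 91123844) had 51.0 CPM untreated, 49.6 CPM at 24 h, then 68.7 CPM at 48 h in clone 31, and 57.6 CPM untreated, 51.2 CPM at 24 h, then 64.4 CPM at 48 h in clone 30. Again the 48 h libraries were above all others, by 0.30 ± 0.10 against untreated (edgeR with the clone as a term, adjusted p = 0.0963; 0.237 on treatment group alone). From 24 h to 48 h Rbl2 rose by 0.40 ± 0.10 (edgeR with the clone as a term, adjusted p = 0.0384; 0.121 on treatment group alone). The remaining pocket protein gene, Rbl1, whose product p107 is made mainly in cycling cells, went the other way and fell by 0.52 ± 0.10 at 48 h (edgeR with the clone as a term, adjusted p = 0.0296). RPKM summed over the 3 pocket protein genes was 29.6 in clone 31 and 24.5 in clone 30 at 48 h, against 25.6 and 25.1 untreated. The sum thus stood higher in clone 31 and slightly lower in clone 30. Of this sum, Rbl1 made up 32.1% in clone 31 and 26.9% in clone 30 at 48 h, against 49.1% and 41.1% untreated. Rb1 made up 37.2% and 38.3% at 48 h in clone 31 and clone 30, against 24.5% and 28.5% untreated. Per kilobase of exon, Rb1 was thus the largest of the 3 at 48 h in both clones, where Rbl1 had been the largest untreated. In CPM, Rbl2 stood above Rb1 at 48 h, at 68.7 against 66.2 in clone 31 and 64.4 against 56.6 in clone 30.

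Counted over the 10 genes, 48 h of auxin against untreated gave 4 that fell (Ccnd1, Ccnd2, Ccnd3, Cdk6), 1 that rose (Cdkn1b) and 5 that did not pass, in edgeR with the clone as a term. Over all 16007 genes tested that fit called 9.08% lower and 8.35% higher, 17.4% in all (1454 lower and 1336 higher, against 1232 lower and 1524 higher with upper-quartile scaling). DESeq2 with the clone as a term called these 5 and Rb1, beside 12.0% lower and 10.9% higher of the 14455 genes to which it gave an adjusted p. On treatment group alone edgeR called 0 of the 10 and 0 of all genes (4 of the 10 and 3311 of all at an unadjusted p under 0.05). In that design DESeq2 called 3 of the 10 (Ccnd1 and Ccnd3 lower, Rb1 higher) and 1644 of all genes, and limma voom 0 of the 10. Libraries did not overlap for 5 genes that were lower (the 3 cyclin genes, Cdk4 and Cdk6) and 2 that were higher (Rb1 and Rbl2), where 25.7% of all genes did so in each direction. Within both clones 5 of the 10 were lower and 3 higher, beside 35.3% lower and 36.9% higher of all genes. The median log2 change of the 10 was -0.05, against 0.02 for all genes. In size, the change of Ccnd1 exceeded 98.6% and that of Ccnd2 95.0% of all genes tested, whereas those of Cdkn2a and Cdkn2c exceeded 3.5% and 12.0%. With the clone as a term, removing the untreated library of clone 31 left 0 calls among the 10 and 6 among all genes, and removing that of clone 30 left 2 (Ccnd1 and Ccnd2) and 2013. Removing a 24 h library left 1 (Ccnd1), with 646 (clone 31) or 614 (clone 30) of all genes. Fitting only the 48 h and untreated libraries left 0 and 3. Leaving out the 48 h library of clone 31 removed the call of Cdkn1b.

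At 24 h against untreated 0 of the 10 genes passed edgeR, with or without the clone as a term, or DESeq2 and limma voom with it, and 0 had an unadjusted p under 0.05 in either edgeR fit. edgeR called 0% of all genes in both fits (240 genes at an unadjusted p under 0.05, or 988 with the clone as a term), and DESeq2 with the clone as a term called 0.0812% higher and 0.162% lower. The 3 cyclin genes were above untreated in both clones, as were 33.9% of all genes, with Ccnd1 at 0.14 within clone 31 and 0.55 within clone 30 and Ccnd2 at 0.20 and 0.48. Cdk4, Cdk6, Cdkn1b and Rbl2 were below untreated in both clones, as were 29.5% of all genes. Libraries of 24 h and untreated did not overlap for Ccnd3, which was higher (13.0% of all genes), and Cdk4, which was lower (12.4%).

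The comparison of 48 h with 24 h of auxin, which shares its 48 h libraries with the one against untreated, had 3 genes that fell and 3 that rose in edgeR with the clone as a term, beside 13.9% lower and 12.3% higher of all genes, 26.1% in all. DESeq2 with the clone as a term called the same 6, beside 15.2% lower and 12.9% higher of 15076 genes. The split over all genes turned with upper-quartile scaling, to 2549 higher and 1726 lower, against 1961 higher and 2224 lower with TMM, while the 6 calls among the 10 genes stood under both scalings. Ccnd1 averaged 351 ± 209 CPM at 48 h and 1581 ± 485 CPM at 24 h (SD, n = 2 each), and fell by 2.25 ± 0.26 (adjusted p = 0.0162; 0.0897 on treatment group alone, both edgeR). Ccnd2 fell by 1.63 ± 0.25 (edgeR with the clone as a term, adjusted p = 0.0164; 0.232 on treatment group alone), Ccnd3 fell by 0.59 ± 0.09 (adjusted p = 0.0164; 0.0887), and Cdkn1b rose by 0.58 ± 0.09 (adjusted p = 0.0171; 0.302). Rb1 and Rbl2 were the other 2 that rose. On treatment group alone 0 of the 10 and 0 of all genes passed edgeR (4 and 3997 at an unadjusted p under 0.05), and DESeq2 called Ccnd1, Ccnd3, Rb1 and Rbl2. With the clone as a term, 0 of the 10 passed without either 24 h library, and Rb1 and Rbl2 did not pass without the 48 h library of clone 31. Libraries of 48 h and 24 h did not overlap for 3 genes that were lower and 2 that were higher, where 27.9% and 28.4% of all genes did so. Within both clones 4 of the 10 were lower and 5 higher, beside 38.6% lower and 41.1% higher of all genes.

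**Figure D3:**
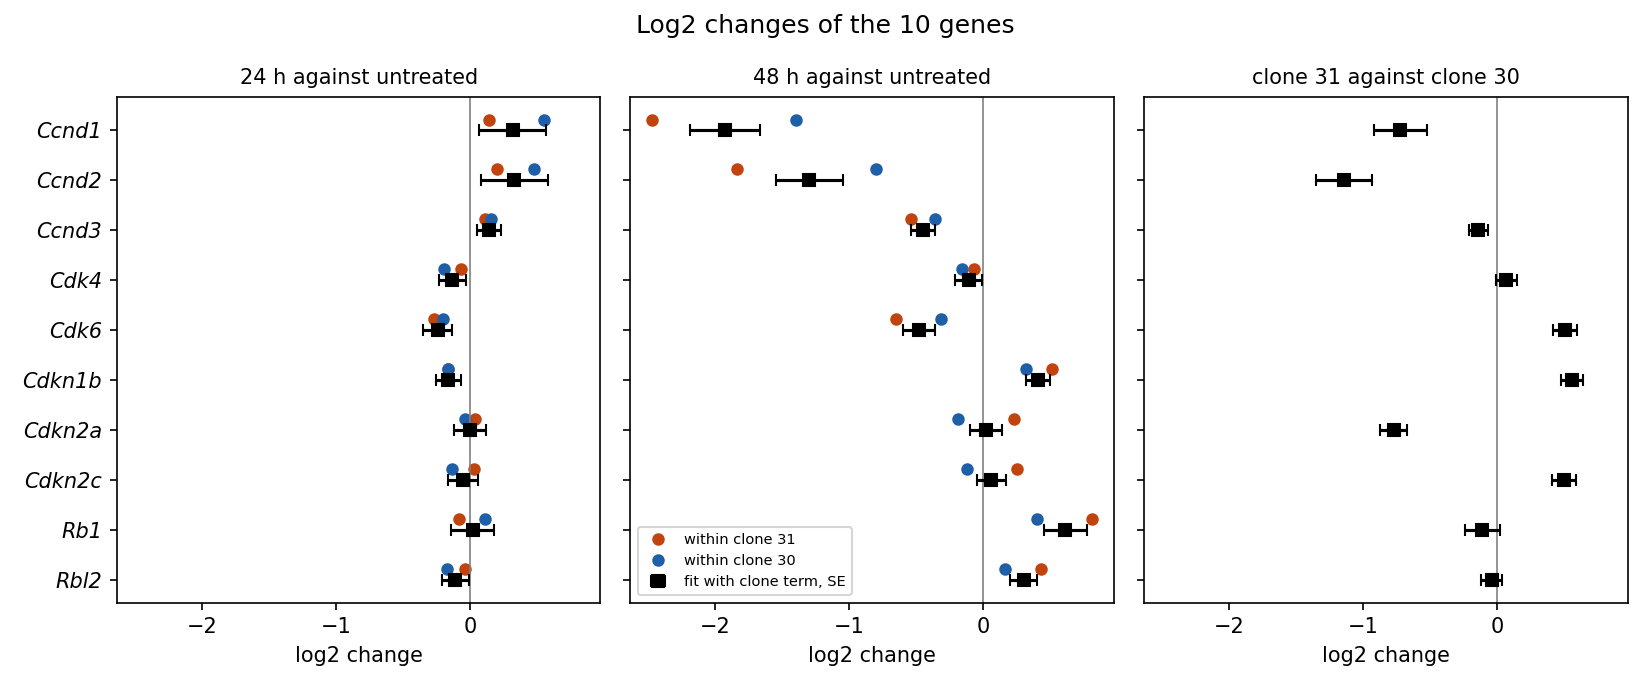
Log2 change (horizontal axis, shared by the panels) of the 10 genes at 24 h against untreated, at 48 h against untreated and in clone 31 against clone 30. Black squares with bars give the edgeR fit with the clone as a term and its SE, and circles, in the panels of time, give the change within clone 31 (red) and clone 30 (blue); at 48 h Ccnd1 is at -2.47 within clone 31 and -1.40 within clone 30.

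The subclones differed in several of these genes. In clone 31 against clone 30, tested with treatment group as the other term on 3 libraries each, 3 of the 10 genes were higher and 2 lower, beside 7.54% higher and 8.58% lower of all genes. The 3 libraries of a clone are the same subclone at the 3 times, not replicates of a condition. The p-values thus measure how steady the difference was over these times. Cdkn1b was higher by 0.56 ± 0.08 (edgeR adjusted p = 0.0088), Cdk6 by 0.51 ± 0.09 (0.0207) and Cdkn2c by 0.50 ± 0.09 (0.0192). Cdkn2a was lower by a log2 change of -0.77 ± 0.10 (edgeR adjusted p = 0.00817) and Ccnd2 by -1.14 ± 0.21 (0.0188). For Cdkn1b, Cdkn2c and Cdkn2a the 3 libraries of clone 31 did not overlap the 3 of clone 30, as for 11.6% of all genes in each direction. Clone 31 thus had more RNA of 2 of these 3 inhibitor genes, less of the other and less Ccnd2. There, 7 of 14 S-phase genes and 11 of 13 mitosis genes were higher and 0 of either were lower. Ccnd1, at -0.72 ± 0.20, did not pass (edgeR adjusted p = 0.0689). Without either 24 h library only Cdkn2a was called.

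Changes at 48 h also differed in size between the subclones, which with 1 library per clone and time was not tested. Counting intervals alone, at 95% (exact), ran from -2.51 to -2.43 for Ccnd1 within clone 31 and from -1.43 to -1.37 within clone 30. Ccnd2 was at -1.84 within clone 31 and -0.80 within clone 30, Rb1 at 0.81 and 0.40, and Rbl2 at 0.43 and 0.16. Among the 8 genes whose sign was shared by the clones, the change was larger in clone 31 for each but Cdk4.

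Other genes of the pathway were read from fixed lists at 48 h against untreated, in edgeR with the clone as a term; on treatment group alone 0 members of any of these lists passed. The counts are to be read against the 9.08% of all genes that fell and the 8.35% that rose in this fit, and a count such as 2 of 13 is near that background. Without the untreated library of clone 31, or with the 48 h and untreated libraries alone, 0 genes of any of these lists passed. Of the cyclin E and CDK2 genes, which act next after cyclin D, 4 of 4 fell and 0 rose (median -0.92). Ccne2 fell by 1.45 ± 0.11, Ccne1 by 1.07 ± 0.15, the CDK2-activating phosphatase gene Cdc25a by 0.77 ± 0.15 and Cdk2 by 0.66 ± 0.10 (edgeR adjusted p = 0.0238 to 0.0319). Of 10 E2F and DP genes 4 fell and 0 rose (median -0.47): the activators E2f1 (by 0.93 ± 0.11) and E2f2 (by 0.78 ± 0.13), the DP partner gene Tfdp1 (by 0.71 ± 0.09) and E2f4 (by 0.59 ± 0.15), an E2F that works with p130. E2f4 lay close to the threshold (edgeR with the clone as a term, adjusted p = 0.0492). With the clone as a term, 3 of this list fell under upper-quartile scaling and 5 in DESeq2. Of the 7 genes for p107 and the MuvB core with its kinase, 2 fell and 0 rose (median -0.25), Rbl1 and Lin54 (by 0.50 ± 0.12). Of 6 genes for turnover of G1 proteins 3 fell and 0 rose (median -0.43). They were Skp2 (by 1.1 ± 0.14), which with Cks1b (by 0.66 ± 0.12) targets p27 for degradation, and Fbxo5 (by 0.56 ± 0.10), an inhibitor of the anaphase-promoting complex.

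Of the other CDK inhibitor genes 3 of 4 were tested, of which 1 fell and 0 rose in edgeR (median -0.22), where 9.08% of all genes fell. Cdkn1a, which encodes p21, had 319 CPM in clone 31 and 437 CPM in clone 30 at 48 h, against 418 and 658 CPM untreated, and fell by 0.49 ± 0.10 (edgeR with the clone as a term, adjusted p = 0.0345). Cdkn2b, next to Cdkn2a and encoding p15INK4b, was at 0.86 ± 0.36 (edgeR with the clone as a term, adjusted p = 0.147; DESeq2 with the clone as a term 0.0374), and Cdkn2d, which encodes p19INK4d, at -0.22 ± 0.13 (0.258). Cdkn1c did not pass the filter, with at most 0.0970 CPM in any library. Of 4 regulators of the Cdkn2a locus (Bmi1, Cbx7, Ezh2 and Hmga2) 0 passed at 48 h, with log2 changes of -0.23, 0.72, -0.32 and -1.42. Of 10 growth arrest genes 2 rose and 2 fell (median 0.17), beside 8.35% of all genes that rose and 9.08% that fell. Btg1, an antiproliferative gene, rose by 0.93 ± 0.10 and Ccng2, a cyclin gene of arrested cells, by 0.82 ± 0.17, while Gas6 fell by 0.64 ± 0.11 and Gas1 by 0.51 ± 0.11 (edgeR adjusted p = 0.0238 to 0.0345 with the clone as a term).

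Beyond G1, 13 of 14 S-phase genes fell and 0 rose (median -0.70; 7 fell without either 24 h library, and removing an untreated library left 0 for clone 31 or 10 for clone 30), with the smallest p for the origin licensing genes Cdt1 (log2 change -1.05), Cdc6 (-1.3), Mcm3 (-1.06) and Mcm4 (-0.88; edgeR adjusted p = 0.0238 each). Of 13 mitosis genes 2 fell, Bub1 and Cdk1, and 0 rose (median -0.29), a count near the 9.08% of all genes that fell. Plk1 and Ccna2 were at -0.37 and -0.34 and did not pass. Over all genes the median was 0.02. At 24 h 0 members of these lists passed. The proliferation gene Mki67, named after its values were seen, had 733 CPM in clone 31 and 471 CPM in clone 30 at 48 h, against 639 and 426 CPM untreated.

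**Figure D4:**
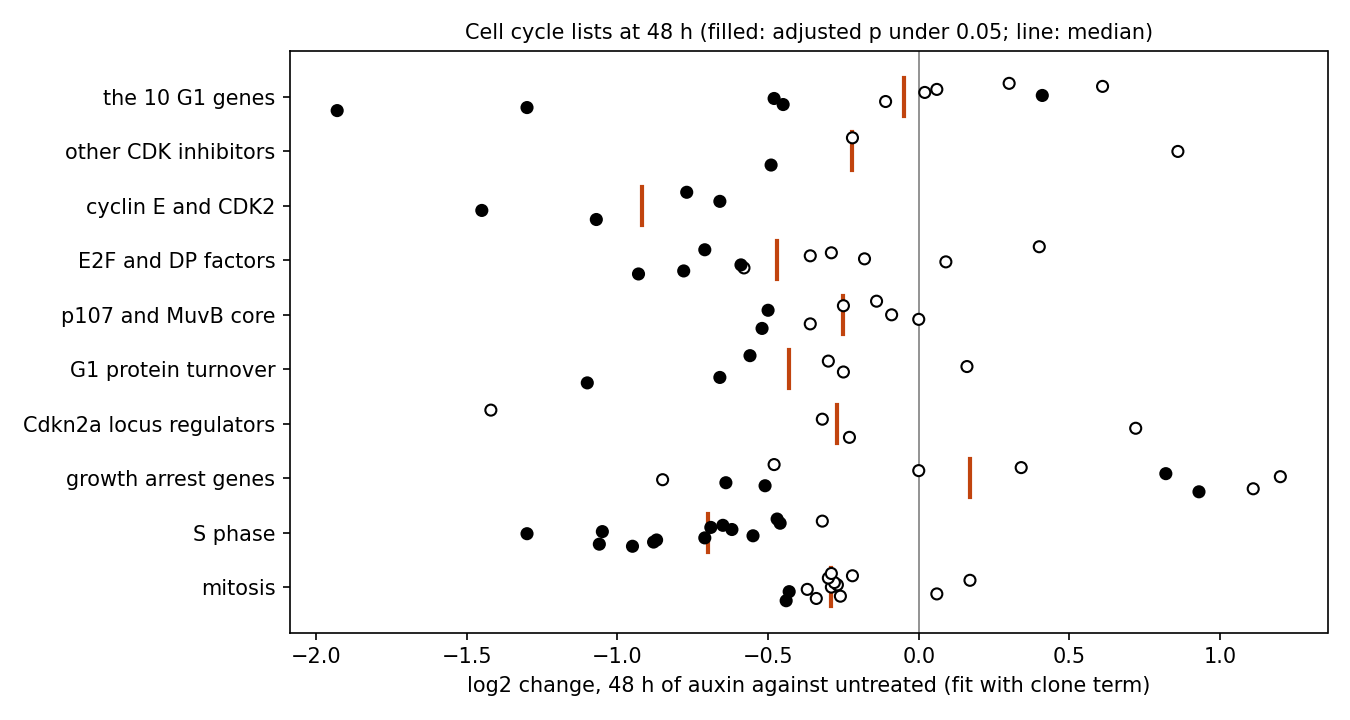
Log2 change at 48 h of auxin against untreated (horizontal axis, edgeR with the clone as a term) for each tested gene of the 10 G1 genes and of 9 further lists (rows). Filled points passed an adjusted p of 0.05, open points did not, and the red line is the median of the list, which is -0.92 for cyclin E and CDK2, -0.70 for S phase and -0.29 for mitosis.

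For the 3 members with the largest changes at 48 h, the genes whose log2 CPM ran most like theirs were taken as those of highest Pearson correlation over the 6 libraries, among 11093 genes at 5 CPM or more on average. Closest to Ccnd1 were Usp46 (r = 0.999), Hspa4 (0.999) and Cox15 (0.998), and 408 genes exceeded an r of 0.95 with it. For Ccnd2 184 genes exceeded 0.95. Closest to Rb1 were Rcbtb1, Nr1h2 and Usp32 (0.997 each), with 263 over 0.95. These 6 points share subclones and times, and the values are given as a description.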

How the data were processed

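Each file holds raw counts per gene. Per the file headers, the authors counted read pairs over Ensembl release 92 exons of GRCm38 (mm10) with featureCounts 1.6.1 in the mode for reverse-stranded reads (-s 2), on merged alignments named as free of duplicates. Exon length in bp (another deposited value) stands beside them, per the file headers. R 3.4.2 and DESeq2 are named too, per the submitters' processing notes. Per the labels' protocols, RNA had a RIN above 9 and was sequenced as 100-base pairs from TruSeq RNA kit v2 libraries. Strand was checked on 154 genes lying inside exons of a well expressed gene of the other strand. The median ratio of counts per bp was 0.0011, and 2 pairs stood at 0.5 or more, so strands were kept apart in most pairs. Genes of the opposite strand whose spans overlap one of the 10 include LTO1 at Ccnd1, Bysl at Ccnd3 and Tspan31 at Cdk4. Others are Rcbtb2 and Lpar6 at Rb1 and Aktip at Rbl2. Bysl had 2628 raw counts untreated and 579 at 48 h in clone 31, and 1085 and 929 in clone 30. Any part of such neighbours in the counts of the 10 genes was not tested. Of 53801 genes 53620 had a symbol.

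The test was edgeR's quasi-likelihood F-test (version 4.0.16 with R 4.3.3; robust; TMM scaling; filterByExpr, which kept 16007 genes), 2-sided, with treatment group as the model term, all 6 libraries in 1 fit and a Benjamini-Hochberg adjusted p of 0.05 as threshold. The SE was taken as the log2 change over the root of F. The clone in the sample titles pairs libraries, since same-numbered ones come from the same subclone. Their deviations from group means correlated at 0.8 between untreated and 24 h, 0.58 between untreated and 48 h, and 0.71 between the auxin groups. Results with the clone as a replicate block are therefore printed beside the others, and "rose" and "fell" refer to it; its common coefficient of variation was 0.121, against 0.271 without the block. P-values measure the spread between these libraries only. CPM is TMM-scaled and log2 CPM has a prior count of 2. Floors and intervals cover counting error only. The 10 genes, the lists and the tests were chosen with earlier results of these data known. From each list at most 4 genes of smallest p at 48 h are named, and for the 3 members of largest change the 3 genes most alike, which for Ccnd2 are not reported here. Alternatives were DESeq2 1.42.0, limma 3.58.1 voom, other scalings, no filter, 4 libraries, and leaving out each library.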

Additional observations from a re-analysis of the deposited data

Results flagged for a closer look

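Both genes below moved in opposite directions in the subclones, each beyond its 95% counting interval, with 1 library per subclone and time, so the difference itself was not tested. At 48 h against untreated Cdkn2a was at 0.23 within clone 31 and -0.19 within clone 30, and Cdkn2c was at 0.25 within clone 31 and -0.12 within clone 30. At 48 h against 24 h Cdkn2a was at 0.18 within clone 31 and -0.15 within clone 30.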

How the results depend on the processing

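On treatment group alone, calls among the 10 genes were 0 at 24 h against untreated, 0 at 48 h against untreated and 0 at 48 h against 24 h, and with the replicate block (the clone) 0, 5 and 6. Over all genes the block gave 2790 calls at 48 h against untreated and 4185 at 48 h against 24 h. With the block, the calls at 48 h against untreated were 6 of the 10 and 2811 of all genes with DESeq2 size factors, 6 and 2756 with upper-quartile scaling, 6 and 3235 with no filter, 6 and 3318 in DESeq2, and 5 and 2852 in limma voom. At 48 h against 24 h they were 6 of the 10 under each of these, with 4203, 4275, 4387, 4229 and 4385 of all genes in the same order. In fits of the 4 libraries of a comparison with the block, 0 of the 10 and 3 of all genes passed at 48 h against untreated, 6 and 4156 at 48 h against 24 h, and 140 of all genes at 24 h. Without the block, no filter gave 216 and 833 calls of all genes at 48 h against untreated and against 24 h, and DESeq2 gave 1644 and 2493 of all, with 3 and 4 of the 10. At 24 h DESeq2 called 6 of all genes, 39 with the block, and no filter with the block 19. Leaving out each library in turn gave 0 to 7 of the 10 and 0 to 6615 of all genes at 48 h against untreated, 0 to 8 and 0 to 7449 at 48 h against 24 h, 0 to 0 and 0 to 263 at 24 h, and 1 to 7 and 641 to 5041 between the clones (the cause was not tested). With the block, removing the untreated library of clone 31 left 6 all-gene calls at 48 h against untreated, removing a 24 h library left 646 (clone 31) or 614 (clone 30), and removing the clone 30 library of 48 h gave 6615. Against 24 h, removing a 24 h library left 3 (clone 31) or 0 (clone 30), and removing the clone 30 library of 48 h gave 7449. Between the clones, removing a 24 h library left 661 (clone 31) or 641 (clone 30), and removing a 48 h library gave 5015 (clone 31) or 5041 (clone 30), against 2581 with all. The block was part of the clone comparison itself.

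Of 860 values of single genes under alternatives 652 kept their side of the threshold and direction. In the auxin comparisons 122 passed where the fit on treatment group had not and 65 changed sign, and between the clones 7 newly passed, 10 no longer passed and 4 changed sign. Cdkn2a gave 38 of the 69 changes of sign. Cdkn2a took values of 0, 0.01, 0.02, 0.03, 0.06 and 0.1 under other scalings, tools and the block, and Rb1 was at -0.02 at 24 h with upper-quartile scaling. Over the fits without 1 library, the 24 h change ran between -0.01 and 0.72 for Ccnd1, -0.19 and 0.79 for Ccnd2, -0.56 and 0.11 for Cdk6, -0.43 and 0.11 for Cdkn1b, -0.49 and 0.53 for Cdkn2a, -0.31 and 0.19 for Cdkn2c, and -0.19 and 0.21 for Rb1. The 48 h change ran between -0.43 and 0.5 for Cdkn2a and -0.31 and 0.41 for Cdkn2c. Against 24 h it ran between -0.39 and 0.46 for Cdkn2a, -0.26 and 0.46 for Cdkn2c, -0.05 and 0.08 for Cdk4, and -0.53 and 0.04 for Cdk6. Between clones Rb1 ran between -0.3 and 0.02 and Rbl2 between -0.12 and 0.03.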
